A study of Mus musculus with 51 samples.

Results

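The genes described here belong to the NRF2 oxidative stress pathway in mouse. They are Nfe2l2, which encodes NRF2, its inhibitor Keap1, and the NRF2 targets Nqo1, Hmox1, Gclc, Gclm, Srxn1, Txnrd1 and Slc7a11. They were chosen by name, 9 of the 40077 genes in the expression table, and all 9 were found there. Bulk RNA-seq covered 51 libraries, 35 from tumors under the skin of mice and 16 from cultured cells. B16-BL6, a melanoma line, gave 3 sgNC tumors (a non-targeting guide RNA) and 4 sgUba1 tumors (a guide RNA against Uba1, the gene of the main ubiquitin-activating enzyme). Myc-CaP, a prostate cancer line that carries a Myc transgene, gave 3 sgNC and 7 sgUba1 tumors, 3 tumors with an empty vector (EV) and 4 with Uba1 overexpression (OE), and 6 Vehicle and 5 TAK-243 tumors. The drug TAK-243 blocks the UBA1 enzyme. Cultured Myc-CaP cells gave 2 libraries for each of sgNC, sgUba1, untreated and TAK-243 (50 nM), each with and without interferon-γ (IFN-γ). Per the study's methods, the sgUba1 lines grew from single edited cells, and tumors were placed on both flanks, so that some may share a mouse. The study names FVB hosts for Myc-CaP and C57BL/6 hosts for B16-BL6, with SCID mice in some experiments, all of them young adults. The labels do not give the host of each library or say which libraries share a clone, guide or mouse. The methods call its data points separate samples without saying whether they were separate cultures or mice. The p-values therefore measure only the spread between these libraries, which may be technical.

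NRF2 is a transcription factor whose level is set mainly by its destruction. KEAP1 holds it on the ubiquitin ligase CUL3, which marks it for the proteasome with ubiquitin that an E1 enzyme such as UBA1 has activated. Oxidants and electrophiles modify KEAP1, NRF2 then escapes destruction and, with a small MAF partner, binds antioxidant response elements in the promoters and enhancers of genes that make glutathione, reduce thioredoxin, break down heme and detoxify quinones. RNA levels were measured here, and the NRF2 protein was not.

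The targeted gene was checked first. Uba1 fell by 0.92 on the log2 scale in B16-BL6 sgUba1 tumors (adjusted p = 2.94e-04, quasi-likelihood test of edgeR, adjusted by Benjamini and Hochberg's method over all genes tested, as for every adjusted p below). It fell by 0.87 in sgUba1 cells (adjusted p = 3.71e-07) and rose by 1.27 in OE tumors (adjusted p = 0.00503). In TAK-243 cells, where the drug acts on the enzyme, Uba1 RNA was higher by 0.37 (adjusted p = 5.68e-12), and in TAK-243 tumors its value was −0.06 (adjusted p = 0.752). Among the 7 Myc-CaP tumors labelled sgUba1, Uba1 lay below every sgNC tumor in 3 (replicates 1 to 3) and above every sgNC tumor in 4 (replicates 4 to 7), so the label does not stand for lower Uba1 RNA in each of them. Total counts ran from 8651963 to 35693092 per tumor, from 26768450 to 38032284 in the sgRNA cells and from 12860844 to 16793793 in the TAK-243 cells. The summed level of 7 melanocyte markers was 12484 to 16313 CPM in B16-BL6 tumors and at most 32.5 CPM in every other library. The summed level of 7 prostate epithelial markers was at least 1313 CPM in every Myc-CaP library and at most 1.53 CPM in B16-BL6 tumors, although Pbsn, which marks the normal prostate, stood at 0 counts in every Myc-CaP group except the OE tumors.

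In GENCODE M21 on GRCm38, Nfe2l2 (ENSMUSG00000015839.6) lies at chr2:75675513-75704641 on the minus strand and Keap1 (ENSMUSG00000003308.15) at chr9:21229730-21239361 on the minus strand. Slc7a11 (ENSMUSG00000027737.10) lies at chr3:49892526-50443614 on the minus strand, Gclc (ENSMUSG00000032350.9) at chr9:77754535-77794485 on the plus strand and Gclm (ENSMUSG00000028124.15) at chr3:122245557-122270732 on the plus strand. Srxn1 (ENSMUSG00000032802.8) lies at chr2:152105516-152111376, Txnrd1 (ENSMUSG00000020250.10) at chr10:82833951-82897712 and Hmox1 (ENSMUSG00000005413.8) at chr8:75093621-75100589, all on the plus strand. Nqo1 (ENSMUSG00000003849.8) lies at chr8:107388225-107403206 on the minus strand. The spans of Txnrd1 and Slc7a11 overlap 1 and 2 other genes of the table, so that reads shared with them could be split by the counting.

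RefSeq promoter sequences (build GRCm38.p6, from 250 bases before to 50 after a start site) matched 7 of the 9 members, with 9 entries, and those of Gclc and Hmox1 were not searched. They were searched on both strands for the core antioxidant response element TGACNNNGC, the letters that NRF2 and its MAF partner bind, which 12.4% of all 32851 promoters hold. It was found in a promoter of Nfe2l2, Gclm, Srxn1 and Txnrd1. After the values of Slc7a11 had been seen, the amino acid response element TGATGNAA, the letters bound by ATF4 with a C/EBP partner, was searched too. It is held by 3.97% of all promoters and among the 7 members searched was found only in Slc7a11, once on each strand. The 2 kinds of match do not overlap, a match is a description and not a site of binding, and no match says only that the letters are not in these windows. The promoters of the 4 target genes with a match are printed 5′ to 3′ on the strand of the gene, since their RNA is compared below, with the matched letters in capitals. Matches begin at bases −66 and −47 in Slc7a11, −134 in Gclm, 29 in Srxn1 and −92 in Txnrd1, counted from the start site.
Slc7a11, chr3:50443564-50443863, minus strand, amino acid response elements: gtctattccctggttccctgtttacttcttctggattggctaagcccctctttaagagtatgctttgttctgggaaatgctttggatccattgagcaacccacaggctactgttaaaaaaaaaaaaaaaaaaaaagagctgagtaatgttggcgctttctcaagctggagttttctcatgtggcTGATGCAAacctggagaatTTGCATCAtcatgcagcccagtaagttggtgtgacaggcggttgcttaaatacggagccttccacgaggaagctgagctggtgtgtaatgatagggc
Gclm, chr3:122245307-122245606, plus strand, antioxidant response element: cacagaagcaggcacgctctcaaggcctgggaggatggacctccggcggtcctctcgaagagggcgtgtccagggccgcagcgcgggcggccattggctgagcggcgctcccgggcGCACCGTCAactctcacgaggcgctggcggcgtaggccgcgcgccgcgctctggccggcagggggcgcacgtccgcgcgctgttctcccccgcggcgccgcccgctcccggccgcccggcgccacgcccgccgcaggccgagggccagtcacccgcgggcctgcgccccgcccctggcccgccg
Srxn1, chr2:152105274-152105573, plus strand, antioxidant response element: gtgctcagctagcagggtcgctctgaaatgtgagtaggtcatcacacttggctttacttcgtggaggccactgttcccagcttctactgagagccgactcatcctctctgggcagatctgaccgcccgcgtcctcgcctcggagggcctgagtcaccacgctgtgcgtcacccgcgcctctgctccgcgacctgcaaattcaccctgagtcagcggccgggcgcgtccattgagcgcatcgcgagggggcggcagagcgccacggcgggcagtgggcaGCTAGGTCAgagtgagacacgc
Txnrd1, chr10:82858956-82859255, plus strand, antioxidant response element in this entry and not in the other two: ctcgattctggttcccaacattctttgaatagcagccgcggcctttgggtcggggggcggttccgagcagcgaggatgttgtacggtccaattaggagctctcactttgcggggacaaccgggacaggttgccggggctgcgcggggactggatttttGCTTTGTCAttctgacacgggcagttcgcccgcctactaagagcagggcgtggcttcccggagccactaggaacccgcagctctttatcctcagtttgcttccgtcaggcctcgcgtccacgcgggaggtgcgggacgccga

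The members differed widely in level between the 2 tumor models. Per length, on the TPM scale, Txnrd1 stood highest in B16-BL6 sgNC tumors (161 ± 15.3 TPM, SD, n = 3), followed by Hmox1 (78.3 TPM) and Nfe2l2 (53.5 TPM), and Slc7a11 stood lowest (1.84 TPM). In Myc-CaP sgNC tumors Gclm stood highest (84.7 TPM), Txnrd1, Slc7a11 and Gclc followed at 58.7, 50.9 and 45.9 TPM with neighbours overlapping, and Nqo1 stood lowest (0.415 TPM). In untreated Myc-CaP cells the order was Txnrd1 (92.2 TPM), Gclm and Gclc (63.7 and 62.8 TPM, overlapping), Slc7a11, Keap1, Nfe2l2, Srxn1, Hmox1 (10.7 TPM) and Nqo1 (0.171 TPM). In sgNC cells Slc7a11 stood 7th of 9 (22.6 TPM), so its place differed between the control groups of the prostate line, while in the melanoma it was the lowest member. Nqo1 stood 8th of 9 in the melanoma (12.0 TPM) and lowest in the prostate line. The models were not tested against each other, since line and experiment differ together.

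In the sgUba1 and TAK-243 cells 5 to 8 of the 8 members tested passed, and in each tumor experiment at most 1. The share of all genes that passed differed in the same direction, so each count is read beside that share. TAK-243 changed 8 of the 8 members tested (2 higher and 6 lower), where 66.3% of all genes passed the same test, and it did the same with IFN-γ present (68.2% of all genes). In sgUba1 cells 5 of 8 changed, 1 higher and 4 lower (29.7% of all genes), and with IFN-γ 8 of 8 changed, 1 higher and 7 lower (39.4% of all genes). Their median log2 fold change was −0.75 with TAK-243 and −0.19 in sgUba1 cells, against 0.027 and −0.0016 over all genes tested. The summed prostate epithelial markers of the line were lower with the drug too, at 2775 to 2791 CPM in TAK-243 against 4238 to 4278 CPM in untreated cells. The part of that shift in the members' values was not tested. In Myc-CaP tumors labelled sgUba1, 1 of 8 members changed, which was lower (3.04% of all genes, 1.89% counting lower genes alone), and 2 reached an unadjusted p under 0.05 (23.7% of all genes). By edgeR's test 0 of 9 passed in B16-BL6 tumors (0.724% of all genes) and 0 reached an unadjusted p under 0.05 (16.3% of all genes), likewise 0 with DESeq2, limma-voom or limma on TPM. In OE tumors 0 of 8 passed (0.0269% of all genes), 2 reached an unadjusted p under 0.05 (18.2% of all genes), and DESeq2 called 1 (4.87% of all genes by that tool), limma-voom 0 and limma on TPM 0. In TAK-243 tumors 0 of 9 passed (0.145% of all genes), 1 (Gclc) reached an unadjusted p under 0.05 (15% of all genes), and the other 3 methods called 0.

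**Figure D1:**
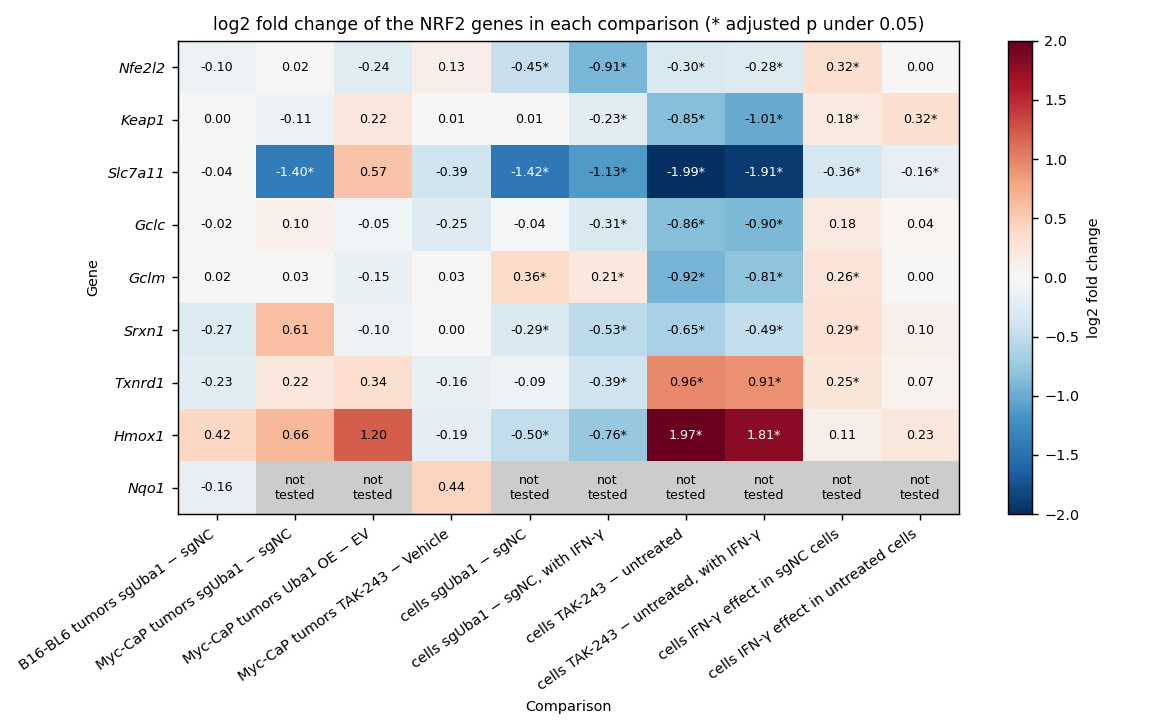
log2 fold change of each of the 9 genes (rows) in 10 comparisons (columns), from −2 in blue to 2 in red, with an asterisk at an adjusted p under 0.05 and grey where the counts were too low to test. The tumor columns hold a single asterisk, Slc7a11 at −1.40, while in the TAK-243 columns Hmox1 and Txnrd1 are red and the other 6 tested genes are blue.

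Nfe2l2 RNA was lower in sgUba1 and in TAK-243 cells, with and without IFN-γ. It stood at 71.6 and 80.4 CPM (counts relative to TMM-scaled library totals of that experiment) in sgNC cells and at 55.6 and 55.4 CPM in sgUba1 cells, a log2 fold change of −0.45 (SE 0.060, adjusted p = 2.19e-04). With IFN-γ it stood at 93.1 and 96.5 CPM in sgNC and at 48.8 and 52.0 CPM in sgUba1 cells (−0.91, SE 0.059, adjusted p = 1.08e-06). The interaction of sgUba1 and IFN-γ was −0.46 (adjusted p = 0.0206), a call lost without any single library of the sgNC + IFN-γ, sgUba1 or sgUba1 + IFN-γ groups (adjusted p of 0.0641 to 0.254) and on TPM (adjusted p = 0.207). With TAK-243 it stood at 41.8 and 38.3 CPM against 48.8 and 50.3 CPM untreated, a fall of 0.30 on the log2 scale (adjusted p = 5.03e-04), and with IFN-γ present at 43.2 and 38.8 CPM against 49.2 and 50.0 CPM (−0.28, adjusted p = 0.00119), a call lost on TPM (−0.12, adjusted p = 0.221). The effect of TAK-243 minus that of sgUba1 was 0.13 and did not pass (SE 0.094, adjusted p = 0.259, in a range of 0.0489 to 0.767). In tumors Nfe2l2 did not pass the test in any of the 4 experiments. It stood at 84.1 to 92.4 CPM in B16-BL6 sgNC and 78.2 to 89.0 CPM in B16-BL6 sgUba1 tumors, and between 24.0 and 50.8 CPM in all Myc-CaP tumors.

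Keap1, the adaptor that presents NRF2 to CUL3, was lower in TAK-243 cells and, without IFN-γ, not in sgUba1 cells. It stood at 73.6 and 77.5 CPM in untreated and at 43.1 and 40.7 CPM in TAK-243 cells (log2 fold change −0.85, SE 0.061, adjusted p = 2.44e-13). In sgNC and sgUba1 cells the libraries overlapped, at 83.6 and 81.6 against 84.3 and 82.1 CPM (0.01, SE 0.042, adjusted p = 0.888). The difference between these effects was −0.88 (SE 0.072, adjusted p = 2.96e-09), tested in 1 fit of the cell libraries, each treatment against its own control. In that test 7 of 8 members passed (55.3% of all genes). The drug and the guide RNA were used in separate experiments that also differ in their cells and depth. For every member, the parts of these in a drug minus guide difference cannot be told apart. With IFN-γ the sgUba1 cells also had less Keap1, 79.2 and 80.3 against 92.8 and 94.1 CPM (−0.23, adjusted p = 0.00109), a call lost without sgUba1 + IFN-γ replicate 1 (adjusted p = 0.062). In OE tumors Keap1 stood at 62.8 to 73.9 CPM, above all 3 EV tumors at 52.4 to 60.6 CPM, but did not pass (0.22, adjusted p = 0.275).

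Slc7a11 encodes the light chain of the carrier that imports cystine for glutathione synthesis, and was the member with the largest fall. In sgNC cells it stood at 125 and 117 CPM and in sgUba1 cells at 45.3 and 44.9 CPM, a log2 fold change of −1.42 (SE 0.053, adjusted p = 3.32e-08). Untreated cells had 219 and 221 CPM and TAK-243 cells 54.8 and 56.3 CPM (−1.99, SE 0.041, adjusted p = 3.16e-26). Controls differed between the 2 cell experiments, so each effect is read against its own control, and the fall with TAK-243 exceeded that in sgUba1 cells by 0.58 on the log2 scale (SE 0.070, adjusted p = 6.80e-07). With IFN-γ the falls were 1.13 in sgUba1 and 1.91 in TAK-243 cells, and IFN-γ by itself lowered Slc7a11 by 0.36 in sgNC cells and by 0.16 in untreated cells (adjusted p = 0.00735 and 7.23e-04). The former call was lost without either sgNC + IFN-γ library (adjusted p = 0.183 and 0.113) and the latter held without any single library.

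In Myc-CaP tumors Slc7a11 followed the label. The sgNC tumors stood at 204, 305 and 280 CPM, and the tumors labelled sgUba1, in the order of their replicate numbers, at 98.5, 131, 109, 102, 94.0, 93.5 and 69.2 CPM. All 7 lay below all 3 sgNC tumors, both the 3 with low Uba1 RNA and the 4 with high Uba1 RNA, where 5.38% of all genes lay wholly below (log2 fold change −1.40, SE 0.17, adjusted p = 0.016). Without sgNC replicate 2 the value was −1.29 with an adjusted p of 0.0517, and with only the 3 tumors of low Uba1 RNA it was −1.22 with an adjusted p of 0.094, within a range of 1.67e-09 to 0.153 over all 19 alternatives. Marker sums separated the same tumors too. T and NK cell markers summed to 12.9 to 30.7 CPM in the tumors labelled sgUba1 against 10.05 to 11.7 CPM with sgNC. These sums are low. Of 9 such markers 3 reached a mean of 1 CPM in the former and 2 in the latter, and cultured cells summed to 2.10 to 7.78 CPM. Prostate epithelial markers, which mark the Myc-CaP cells themselves, summed to 2380 to 3159 against 1673 to 2263 CPM. Of 13 macrophage markers tested 4 passed, all higher (3.04% of all genes), although the sums of all 15 overlapped. The part of these markers in the result was not tested. In OE tumors Slc7a11 stood at 354, 300, 312 and 253 CPM, above all 3 EV tumors at 220, 232 and 166 CPM, a log2 fold change of 0.57 that did not pass (SE 0.149, adjusted p = 0.143, and 0.0236 with DESeq2, in a range of 0.0236 to 0.427). Groups that do not overlap made up 20.7% of all genes in that experiment, and Slc7a11 and Keap1 were 2 of the 8 members tested. Marker sums separated OE from EV tumors as well, at 5.16 to 10.5 against 16.3 to 22.1 CPM for T and NK cells. Of those 9 markers 2 reached a mean of 1 CPM in OE and 4 in EV tumors, and the OE range overlaps that of cultured cells. Prostate epithelial markers summed to 1313 to 2187 against 2228 to 2532 CPM, and the part of either list in Slc7a11 was not tested. TAK-243 tumors stood at 242, 116, 247, 91.8 and 255 CPM and Vehicle tumors between 158 and 347 CPM (median 249), so that the groups overlapped (−0.39, SE 0.30, adjusted p = 0.566). B16-BL6 tumors stood at 3.53 to 11.9 CPM in both groups together (−0.04, SE 0.35, adjusted p = 0.961). The sgUba1 effect in B16-BL6 minus that in Myc-CaP tumors was 1.34 (SE 0.42, adjusted p = 0.108, and 0.0328 with DESeq2, in a range of 0.0328 to 0.343). That difference passed for 0 of 9 members by edgeR (1.52% of all genes), 2 reached an unadjusted p under 0.05 (18.3% of all genes), and DESeq2 and limma on TPM called 1 each (6.83% and 1.25% of all genes by those tools) and limma-voom 0. Nqo1 is among the 9 only through its level in B16-BL6. Its counts in these Myc-CaP tumors were too low to test, so its result there says nothing.

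**Figure D2:**
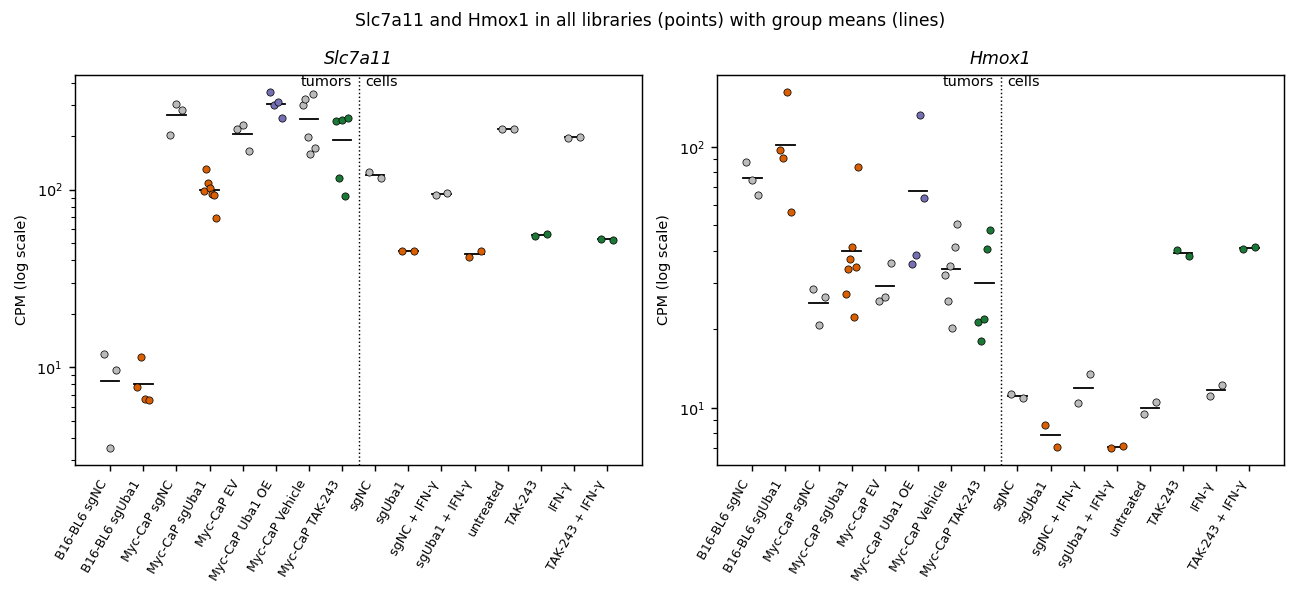
Slc7a11 and Hmox1 in every library (points) with group means (lines), in CPM on a log axis, for the 8 tumor groups and the 8 cell groups. Slc7a11 lies at 69.2 to 131 CPM in the Myc-CaP tumors labelled sgUba1 and at 204 to 305 CPM in their controls, and Hmox1 lies near 40 CPM in the TAK-243 cell groups and at 13.4 CPM or below in all other cell groups.

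Gclc and Gclm encode the catalytic and the modifier subunit of glutamate-cysteine ligase, the enzyme that starts glutathione synthesis. With TAK-243 they fell together, Gclc from 141 and 139 to 78.5 and 75.2 CPM (log2 fold change −0.86, SE 0.046, adjusted p = 2.13e-16) and Gclm from 62.3 and 60.1 to 32.5 and 32.0 CPM (−0.92, SE 0.069, adjusted p = 6.28e-13). In sgUba1 cells they parted. Gclm rose from 63.6 and 61.7 to 76.2 and 84.5 CPM (0.36, SE 0.054, adjusted p = 5.20e-04), the only member to rise there, while Gclc stood at 137 and 151 CPM in sgNC and at 141 and 140 CPM in sgUba1 cells (adjusted p = 0.655). The drug minus guide difference was −1.30 for Gclm (SE 0.081, adjusted p = 6.00e-11) and −0.84 for Gclc (SE 0.073, adjusted p = 6.31e-09). With IFN-γ, Gclm was again higher in sgUba1 cells (88.0 and 85.8 against 75.1 and 75.2 CPM, 0.21, adjusted p = 0.00829), a call lost without either sgNC + IFN-γ library (adjusted p = 0.0628 and 0.0634) and on TPM (adjusted p = 0.486), and Gclc was lower (131 and 133 against 166 and 161 CPM, −0.31, adjusted p = 7.66e-04).

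In the Myc-CaP tumors labelled sgUba1, Gclm and Srxn1 differed between the tumors of the same label. Gclm stood at 119, 101 and 115 CPM in replicates 1 to 3, above all sgNC tumors (90.3, 66.5 and 75.6 CPM), and at 59.5, 45.9, 58.4 and 52.8 CPM in replicates 4 to 7, below all of them. Srxn1, which restores overoxidized peroxiredoxins, stood above all sgNC tumors (35.9, 29.9 and 31.8 CPM) in replicates 4 to 7, at 62.8, 59.6, 66.6 and 57.4 CPM. In replicates 1 to 3 it overlapped them, at 33.0, 37.4 and 29.996 CPM. Replicates 1 to 3 are the tumors whose Uba1 RNA lay below every sgNC tumor (197, 202 and 211 CPM), and replicates 4 to 7 those above (373, 361, 368 and 383 CPM against 320, 325 and 337 CPM). Of all genes tested, 1.29% split as Gclm did, and 20.7% lay above every sgNC tumor in replicates 4 to 7 as Srxn1 did. Over the whole label neither gene passed (Gclm 0.03, adjusted p = 0.972, and Srxn1 0.61, adjusted p = 0.2). With only replicates 1 to 3 against sgNC, Gclm had a value of 0.52 (adjusted p = 0.151) and Srxn1 of 0.03 (adjusted p = 0.91), and neither passed. The split was seen in the data, its tumors are not groups of the study, and the difference between replicates 1 to 3 and 4 to 7 was not tested.

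**Figure D3:**
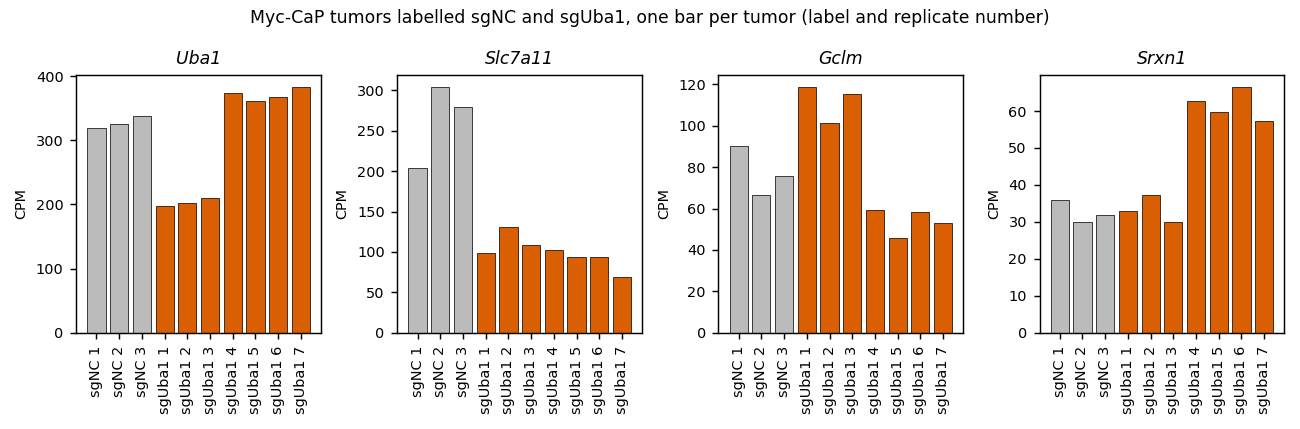
CPM of Uba1, Slc7a11, Gclm and Srxn1 in each Myc-CaP tumor labelled sgNC (grey) or sgUba1 (orange), 1 bar per tumor from 0. Slc7a11 is low in all 7 tumors labelled sgUba1, whereas Gclm is high in replicates 1 to 3 and Srxn1 is high in replicates 4 to 7.

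Srxn1 and Txnrd1, the cytosolic reductase that recharges thioredoxin with NADPH, moved in opposite directions under the drug. TAK-243 lowered Srxn1 from 38.6 and 36.7 to 24.2 and 23.7 CPM (log2 fold change −0.65, SE 0.082, adjusted p = 3.91e-08) and raised Txnrd1 from 187 and 185 to 361 and 364 CPM (0.96, SE 0.031, adjusted p = 1.24e-21). In sgUba1 cells Srxn1 was lower, 36.9 and 36.4 against 47.3 and 42.7 CPM (−0.29, SE 0.061, adjusted p = 0.00369), and Txnrd1 stood at 219 and 216 against 234 and 229 CPM without passing (−0.09, SE 0.044, adjusted p = 0.144). With IFN-γ both genes were lower in sgUba1 cells, Srxn1 at −0.53 and Txnrd1 at −0.39 (adjusted p = 4.10e-05 and 3.81e-05). The drug minus guide difference was 1.03 for Txnrd1 (SE 0.051, adjusted p = 2.42e-12) and −0.38 for Srxn1 (SE 0.093, adjusted p = 0.0017). In tumors the 2 genes did not pass the test. In B16-BL6 tumors Srxn1 stood at 31.1, 32.6, 37.0 and 47.5 CPM with sgUba1 and at 40.8, 48.3 and 44.7 CPM with sgNC (−0.27, adjusted p = 0.36), and without sgUba1 replicate 4 the value was −0.42 with an adjusted p of 0.0452, in a range of 0.0452 to 0.702.

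Hmox1 encodes heme oxygenase, which cleaves heme and is held down by the repressor BACH1. It showed the largest rise with TAK-243, from 9.51 and 10.5 to 40.2 and 38.1 CPM, 3.92-fold (log2 fold change 1.97, SE 0.098, adjusted p = 4.26e-17), and stood at 40.6 and 41.3 against 11.1 and 12.2 CPM with IFN-γ (1.81, adjusted p = 1.64e-16). In sgUba1 cells it was lower, 8.60 and 7.11 against 11.3 and 10.9 CPM (−0.50, SE 0.13, adjusted p = 0.013), a call lost without sgUba1 replicate 2 (adjusted p = 0.123) and on TPM (adjusted p = 0.062). Hmox1 thus moved in opposite directions in the TAK-243 and the sgUba1 experiment, each against its own control, with a difference of 2.45 (SE 0.16, adjusted p = 1.59e-10). With IFN-γ, Hmox1 was also lower in sgUba1 cells (−0.76, SE 0.13, adjusted p = 6.84e-04), a call kept under all 16 alternatives. Macrophages also make much Hmox1, and in cells 7 to 9 of 15 macrophage markers stood at 0 counts in a group, among them Adgre1 in every group, with a summed level of 13.2 to 24.0 CPM.

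In tumors Hmox1 was uneven and did not pass the test in any experiment. OE tumors stood at 35.6, 38.6, 132 and 63.6 CPM against 25.6, 26.6 and 35.8 CPM with EV (1.20, SE 0.45, adjusted p = 0.226), tumors labelled sgUba1 between 22.2 and 83.6 CPM (median 34.5) against 20.7 to 28.6 CPM (0.66, adjusted p = 0.29), and B16-BL6 sgUba1 tumors at 97.0, 91.0, 162 and 56.4 against 87.6, 74.7 and 65.5 CPM (0.42, adjusted p = 0.48). TAK-243 tumors stood at 21.3, 17.95, 22.0, 40.7 and 48.0 CPM and Vehicle tumors between 20.3 and 50.5 CPM (median 33.6), so the rise seen in TAK-243 cells had no counterpart past the test in these tumors (−0.19, SE 0.29, adjusted p = 0.786). The summed macrophage markers of the 15 genes were 391.6 to 476 CPM in EV and 161 to 524 CPM in OE tumors (0 of 13 tested passed, 3 of 13 above zero, median log2 fold change −0.46). They were 281 to 578 CPM in Myc-CaP sgNC tumors and 499 to 820 CPM in the tumors labelled sgUba1 (4 of 13 tested passed, all higher, 12 of 13 above zero, median 0.65), 147 to 239.6 and 247 to 296 CPM in the B16-BL6 groups (0 of 14 passed, 14 of 14 above zero, median 0.60), and 239.6 to 332 and 271 to 561 CPM with Vehicle and TAK-243 (1 of 14 passed, 14 of 14 above zero, median 0.65). Of all genes, 0.0269%, 3.04%, 0.724% and 0.145% passed in these experiments, in the order given. In OE tumors 6 erythroid markers summed to 255 to 544 CPM against 84.6 to 176 CPM with EV, without overlap, and 7 skeletal muscle markers to 5.89 to 560.1 CPM against 5.47 to 8.15 CPM. The part of these cells in Hmox1 was not tested, and in bulk samples fewer cells of a type and less RNA per cell cannot be told apart.

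Nqo1, the quinone reductase most used as a readout of NRF2, could barely be read outside the melanoma. It stood at 9.93, 12.7 and 11.8 CPM in B16-BL6 sgNC and at 9.37, 9.67, 9.78 and 12.3 CPM in sgUba1 tumors, which overlapped (log2 fold change −0.16, SE 0.13, adjusted p = 0.574). In Myc-CaP tumors it had 1 to 19 counts per library and in cells 0 to 4, and of the Myc-CaP experiments it could be tested only in the TAK-243 tumors (0.44, SE 0.44, adjusted p = 0.663). Both TAK-243 cell libraries had 0 counts, which at their depth allows up to 0.184 and 0.241 CPM (3 counts, counting error only). Untreated cells had 0.064 and 0.250 CPM, so a fall of Nqo1 was not detectable at this depth. A rise past the limits above was not seen with TAK-243.

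**Figure D4:**
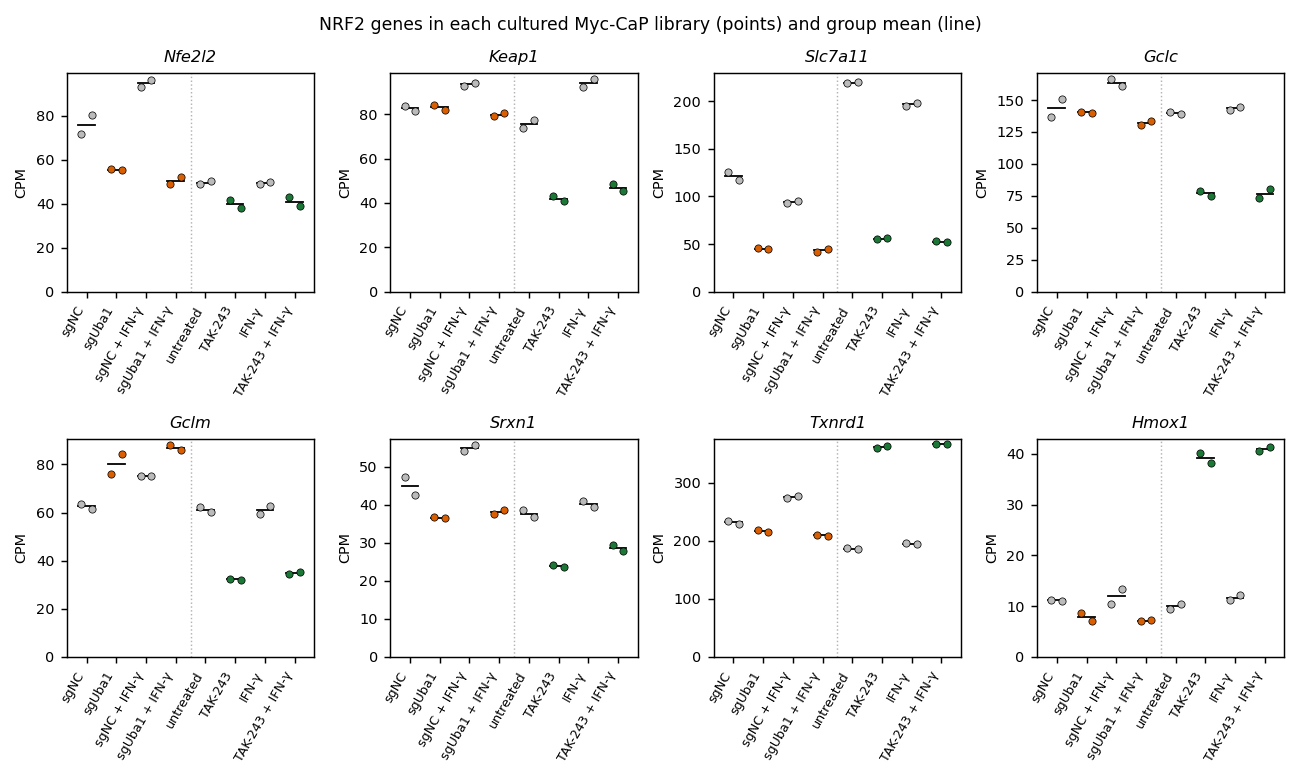
CPM of the 8 tested genes in each cultured Myc-CaP library (points) with the group mean (line), axes from 0, sgRNA experiment left of the dotted line and TAK-243 experiment right of it. The libraries of a group mostly lie close together, with wider pairs such as Nfe2l2 in sgNC cells (71.6 and 80.4 CPM). With TAK-243 Hmox1 and Txnrd1 rise while the other 6 genes fall.

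IFN-γ by itself moved the members little. In sgNC cells 6 of 8 passed, 5 higher (Nfe2l2, Keap1, Gclm, Srxn1 and Txnrd1, by 0.18 to 0.32 on the log2 scale) and Slc7a11 lower, where 3.88% of all genes passed. Leaving out either sgNC + IFN-γ library left 0 of 8, and leaving out any sgUba1 library, with or without IFN-γ, left 1. In untreated cells 2 of 8 passed, Keap1 (0.32, from 73.6 and 77.5 to 92.2 and 95.7 CPM, adjusted p = 4.05e-05, and 0.09 with an adjusted p of 0.406 on TPM) and Slc7a11, where 29% of all genes passed. The sgUba1 and IFN-γ interaction passed for 4 of 8 (4.64% of all genes), Nfe2l2 at −0.46, Txnrd1 at −0.30, Keap1 at −0.24 and Slc7a11 at 0.30, with adjusted p of 0.0206, 0.0274, 0.0461 and 0.0493. All 4 were lost on leaving out any library other than the sgNC ones. For TAK-243 and IFN-γ the interaction passed for 0 of 8 with edgeR's test (2.38% of all genes), with 0 at an unadjusted p under 0.05 (14.8% of all genes) and 0 by DESeq2, limma-voom and limma on TPM.

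The other genes of the pathway were read from lists written by hand, 71 genes in all: 15 regulators, 22 of glutathione, 6 of thioredoxin, 6 of NADPH, 14 of detoxification and 8 of iron and heme. With TAK-243, 23 of the 64 tested were higher and 23 lower, where 66.3% of all genes passed the same test, with a median log2 fold change of −0.09 against 0.027 over all genes. Of the regulators 8 of 14 rose and 2 fell, among them Sqstm1, which encodes the p62 receptor that also binds KEAP1 (774 ± 14.7 against 136 ± 1.31 CPM, SD, n = 2 each, log2 fold change 2.51, adjusted p = 1.92e-31), Maff, a small MAF partner of NRF2 (62.1 ± 0.194 against 12.0 ± 1.78 CPM, 2.37, adjusted p = 4.95e-20), and Bach1 (59.6 ± 0.758 against 18.2 ± 0.062 CPM, 1.71, adjusted p = 4.60e-18). Nfe2l1 and Cul3 rose less (0.43 and 0.16, adjusted p = 8.95e-11 and 9.02e-04). Of 18 glutathione genes 9 fell and 4 rose, and of 13 detoxification genes 4 moved each way, with Osgin1, a growth inhibitor induced by oxidants, higher (7.84 ± 1.33 against 1.26 ± 0.198 CPM, 2.64) and Ephx1, the microsomal epoxide hydrolase, lower (6.18 ± 1.36 against 30.9 ± 1.61 CPM, −2.35). Ugt1a6a, a glucuronosyltransferase that shares exons with its neighbours, had a value of −2.58 that is uncertain for that reason. Of the other lists, 4 thioredoxin genes rose and 1 fell of 6, 1 NADPH gene rose and 3 fell of 6, and 2 iron and heme genes rose and 4 fell of 7.

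In sgUba1 cells 17 of the 64 rose and 14 fell, where 29.7% of all genes passed (median 0.036 against −0.0016 over all genes). Of 14 regulators 4 rose and 4 fell, and Maff (−1.03) and Sqstm1 (−0.19) fell where they had risen with the drug, while Bach1 rose by 0.29 and Nfe2l1 and Cul3 did not pass. Of 18 glutathione genes 5 rose and 4 fell, with the transferase Gsta4 at 8.02 ± 0.898 against 3.40 ± 0.044 CPM (SD, n = 2 each, 1.24, adjusted p = 1.02e-04). Of 6 thioredoxin genes 3 rose and 0 fell, with peroxiredoxin Prdx6 at 34.8 ± 0.379 against 19.6 ± 1.62 CPM (0.83, adjusted p = 1.43e-05) and glutaredoxin Glrx at 0.79 (adjusted p = 0.00227). The carbonyl reductase Cbr3 fell (−0.99, adjusted p = 4.75e-04). Over the 65 genes tested for the difference of drug and guide, 19 were higher and 25 lower, where 55.3% of all genes passed. With IFN-γ, 11 rose and 26 fell in sgUba1 cells, where 39.4% of all genes passed, and the largest changes were Cbr3 (−1.26), Gsta4 (1.16), the transferase Gstp2 (−1.02, with a close copy in Gstp1 that may share its reads), Glrx (0.94) and the aldehyde dehydrogenase Aldh3a2 (−0.84). With IFN-γ, 20 rose and 29 fell in TAK-243 cells, where 68.2% of all genes passed, and the largest changes were Ephx1 (−2.50), Sqstm1 (2.35), the conjugate exporter Abcc3 (2.29), Osgin1 (2.22) and Maff (1.98).

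**Figure D5:**
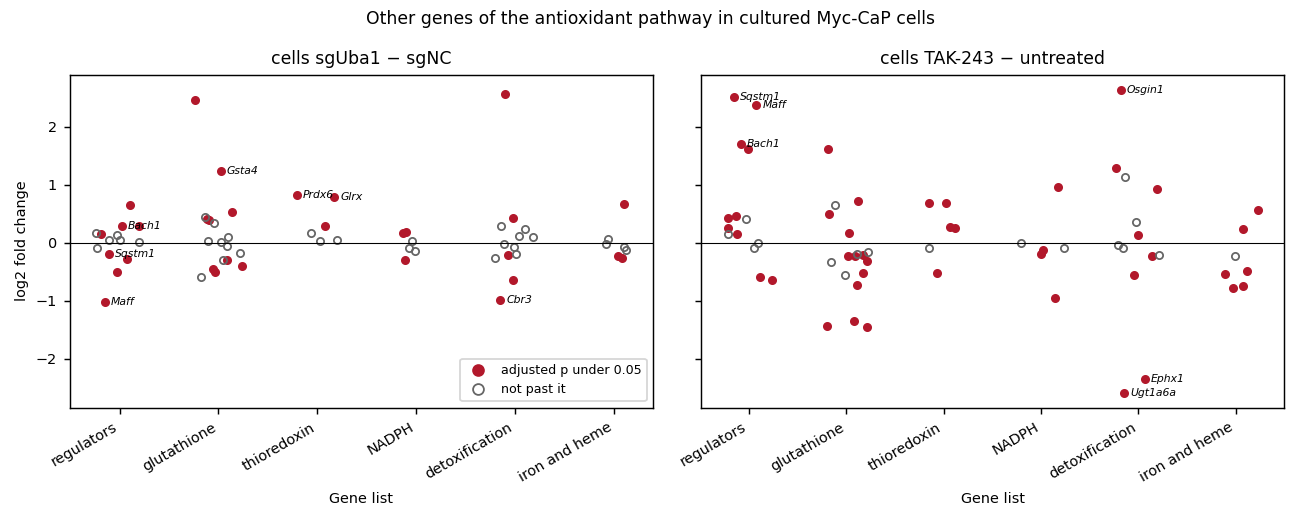
log2 fold change of the other genes of the pathway in sgUba1 cells (left) and TAK-243 cells (right), by list, filled red at an adjusted p under 0.05 and open grey otherwise. With TAK-243 the regulators Sqstm1 (2.51), Maff (2.37) and Bach1 (1.71) lie high, whereas in sgUba1 cells Maff lies at −1.03 and Sqstm1 at −0.19.

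In B16-BL6 tumors 1 of 65 of these genes passed, where 0.724% of all genes did. It was Ephx1, which was lower with sgUba1 (112 ± 10.6 CPM, n = 4, against 166 ± 9.91 CPM, n = 3, log2 fold change −0.57, adjusted p = 0.0127). In Myc-CaP tumors labelled sgUba1, 3 of 66 passed, where 3.04% of all genes did. Slc3a2, the heavy chain that pairs with the Slc7a11 product in the cystine carrier, was lower (180 ± 20.4 CPM, n = 7, against 284 ± 72.8 CPM, n = 3, −0.66, adjusted p = 0.042), as was Ephx1 (−1.60, adjusted p = 0.0271), and Gsta1, whose reads can be shared with close copies, was higher (3.20, adjusted p = 0.0276). Slc3a2 was also lower in sgUba1 cells (−0.30, adjusted p = 6.72e-04) and in TAK-243 cells (−0.32, adjusted p = 3.35e-10). Of all genes 29.7% and 66.3% passed in those comparisons, and Slc3a2 in cells was picked after its values were seen. In OE tumors 0 of 64 and in TAK-243 tumors 0 of 67 passed edgeR's test, where 0.0269% and 0.145% of all genes did.

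The median log2 fold changes of the target genes tested, over 8 treatment comparisons, were closest to those of Pigs, E130309D02Rik, Neurl4, Zfp553 and Efr3a among 10478 genes, with a root mean square difference of 0.0624 to 0.0993 on the log2 scale. The members themselves lay farther from that median, at 0.147 for Gclc, 0.22 for Srxn1, 0.345 for Gclm, 0.827 for Txnrd1, 0.981 for Slc7a11 and 1.38 for Hmox1.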

How the data were processed

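The 9 genes, the gene lists and the comparisons were chosen with earlier results of these data known, so no list is independent evidence. The authors deposited expected counts per gene, estimated with kallisto on mm10 per the submitters' processing notes, and the authors' TPM values, which are scaled for gene length and were used for levels between genes and as an alternative. Per the labels the libraries came from poly-A RNA, whereas the methods name ribosomal depletion. Samples were grouped by their labels alone. The expected counts were rounded, filtered with filterByExpr, scaled with TMM factors and tested with edgeR 4.0.16 (quasi-likelihood, R 4.3.3) with Benjamini-Hochberg adjustment over all genes and a threshold of 0.05. Each tumor experiment was fitted alone and all 8 libraries of a cell experiment together. CPM values use the TMM factors of their experiment and are compared only within it, and SE is that of the log2 fold change. Differences between effects were tested in joint fits. Alternatives were DESeq2 1.42.0, limma-voom and limma 3.58.1 on log2(TPM + 1), RLE normalization, no filter, at least 10 counts in every library, a replicate block, other sets of samples and each library left out. All 9 members are named, with Uba1, Cul3, Bach1, Nfe2l1, Sqstm1 and, per comparison, the 5 other pathway genes that changed most among those past the threshold with a mean log2 CPM of at least 1. These are given for the treatment comparisons, and for IFN-γ alone only the members are. Slc3a2 in cells was chosen after its values were seen. The most alike genes were ranked by root mean square difference from the targets' median log2 fold change over 8 comparisons. Depth ran from 8651963 to 38032284 counts per library, and replicates differed by more than counting error in every pair. Among the cell groups the sgNC pair differed most (chi-square of the counts per degree of freedom 16.8, against 1.81 to 5.47 in the others). That pair is the control of the sgUba1 and IFN-γ effects in the sgRNA experiment. The procedure was tested on simulated data. Positions come from GENCODE M21, which holds 97.7% of the table's gene IDs.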

Additional observations from a re-analysis of the deposited data

Results flagged for a closer look

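In the groups of 4 to 7 tumors, 45 pairs of member and group were examined for a library far from the others, and 5 stood out, where chance alone gives about 1 in 20. Nfe2l2 was lowest in TAK-243 tumor replicate 1 at 32.6 CPM, with the next at 37.8 CPM. Nqo1 was highest in B16-BL6 sgUba1 tumor replicate 4 at 12.3 CPM, with the next at 9.78 CPM. Hmox1 was highest in the tumor labelled Myc-CaP sgUba1 replicate 7 at 83.6 CPM, with the next at 41.4 CPM. Gclm was lowest in B16-BL6 sgUba1 tumor replicate 2 at 33.7 CPM, close to the next at 35.4 CPM. Txnrd1 was highest in Vehicle tumor replicate 1 at 158 CPM, with the next at 126 CPM.

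Effects that differed between conditions by a test of the difference (edgeR's quasi-likelihood test, adjusted p under 0.05) were these. In sgUba1 against sgNC cells, the effect with IFN-γ minus that without it was −0.46 for Nfe2l2, −0.24 for Keap1, −0.30 for Txnrd1 and 0.30 for Slc7a11 on the log2 scale, and all 4 calls were lost on leaving out any of 6 of the 8 libraries. The effect of TAK-243 minus that of sgUba1 in cells was −0.88 for Keap1, 2.45 for Hmox1, −0.84 for Gclc, −1.30 for Gclm, −0.38 for Srxn1, 1.03 for Txnrd1 and −0.58 for Slc7a11, and these 7 calls held without any single library.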

How the results depend on the processing

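Of 1964 fold changes under an alternative, 1854 kept their side of the threshold, 99 lost their call, 11 gained one and 0 calls reversed. Values that were not called could change sign, as for Slc7a11 in B16-BL6 tumors (−0.42 to 0.30). Members called without a single library ranged from 0 to 1 in B16-BL6 and in Myc-CaP sgUba1 tumors, from 0 to 7 for IFN-γ in sgNC cells and from 0 to 6 for its interaction with sgUba1. In Myc-CaP sgUba1 tumors 0 were called with the replicate block (Slc7a11 adjusted p = 0.153) and 0 without the tumors whose Uba1 lay above every control. The labels do not say whether a shared replicate number marks a pair. Correlations ran from −0.226 to 0.38 for same-numbered tumors and from −0.424 to 0.502 for other numbers, over few pairs, which cannot decide it. Under the block all genes called in Myc-CaP sgUba1 tumors fell from 492 to 2, and the interaction of sgUba1 and IFN-γ had 2 members called. DESeq2 called 1 member in OE tumors and 1 for the difference between B16-BL6 and Myc-CaP, as did TPM for the latter. For IFN-γ in sgNC cells 2 were called with at least 10 counts in every library, 0 on TPM and 0 with only the groups compared. For the interaction 2 were called by limma-voom, 2 with RLE, 2 with at least 10 counts and 0 on TPM, and for IFN-γ in untreated cells 1 on TPM, without Keap1. Over all genes DESeq2 called 723 against 4 in OE, 532 against 127 in B16-BL6, 558 against 25 in TAK-243 and 1862 against 492 in Myc-CaP sgUba1 tumors. TPM moved the median of all genes to −0.14 for IFN-γ in untreated cells and to 0.12 for TAK-243 with IFN-γ, where Nfe2l2 was no longer called (−0.12). Without sgNC replicate 1, Nfe2l2 passed for TAK-243 minus sgUba1 (0.21). The causes were not tested. Depth limits Nqo1 in Myc-CaP.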
